A study of Mus musculus with 2 samples.

Results

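The genes described here are 38 genes of the cell division cycle, taken by symbol from the 32285 genes counted in each library and followed across the cell classes of the mouse lung. They were set by name and not by a cut on any measured value, though with earlier results of these data known. 23 of them act around mitosis, 14 serve DNA replication, and Stmn1, a microtubule destabiliser that resting cells also express, was kept apart. All 38 were in the files under a single row each, and none was left out.

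A dividing cell first licenses and copies its DNA, with the minichromosome maintenance (MCM) helicase, its loaders Cdc6 and Cdt1, the sliding clamp Pcna and the enzymes of nucleotide supply. It then builds a spindle under Cdk1 and its cyclins, and leaves mitosis when the anaphase-promoting complex, with Cdc20 and Ube2c, destroys those cyclins. Transcripts of the mitotic genes are made in late cycle and are scarce in resting cells, whereas part of the replication machinery is kept at a low level in many resting cells. In the adult lung few structural cells divide, and alveolar type 2 (AT2) cells, which make surfactant, are known as the cells that renew the alveolar surface.

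The study used 8 Plaur-/- mice and 8 C57B6/J (WT) mice; Plaur encodes the urokinase receptor. All mice of both genotypes were sensitised with LPS and ovalbumin on days 0 and 7 and breathed aerosolised ovalbumin on day 14, so no untreated lung is in the comparison. Cells sorted as CD45.2-negative gave 1 droplet library per genotype. How many mice each library held, and their age, is not given in the sources used here. The tissue is labelled lung, and the cell type label names a total lung cell lysate although the cells were sorted.

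After filtering, the KO-labelled library held 8934 cells with a median of 5537.5 UMIs (unique molecular identifiers, each standing for 1 captured transcript), and the WT library 10225 cells with a median of 4837 UMIs. 30 barcodes occurred in both libraries, and none of the 27 kept in both had 5 or more of the cell cycle genes in either. Plaur itself did not check the labels: its level over all kept cells was 33.1 CPM (UMIs of the gene relative to all UMIs of the same cells, on the usual CPM scale) in the KO-labelled library and 46.9 CPM in the WT library, and in AT2-like cells it was 17.4 CPM in the KO-labelled library against 2.23 CPM in the WT library. The sources do not say which part of the gene was deleted, and a count at the end of the transcript need not cover it. The sort left some blood cells, among them 46 and 192 B or plasma-like cells and 25 and 146 neutrophil-like cells in the KO-labelled and WT libraries. The leukocyte gene Ptprc, which encodes CD45, had 283 and 1286 UMIs over all kept cells, and 1 and 6 UMIs in AT2-like cells. Each genotype is a single library, so differences between them could not be set against replicate spread and were not tested. The 95% intervals given are exact and cover counting error only.

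The promoters of these genes were searched for 3 motifs, and whether the motifs go with any measured level was not tested. RefSeq promoter sequences (GRCm38.p6, 250 bases before to 50 after the start) were at hand for 32 of the 38 genes, and not for Ccna2, Aurkb, Mcm4, Stmn1, Gins2 and Tpx2. The stretches printed here, on the strand of the gene, were chosen to show mitotic genes of the cyclin-kinase pair and of anaphase, a mitotic gene without the late-cycle element, and replication genes of both kinds. Capitals mark 3 motifs searched on both strands: the cell cycle homology region (CHR) as TTTGAA or TTTAAA or CTTGAA, the E2F site as TTTGGCGC or TTTCGCGC or TTTCCCGC, and the NF-Y box CCAAT, with their reverse complements.
Cdk1 (chr10:69352912-69353130, minus strand), the kinase that drives mitosis: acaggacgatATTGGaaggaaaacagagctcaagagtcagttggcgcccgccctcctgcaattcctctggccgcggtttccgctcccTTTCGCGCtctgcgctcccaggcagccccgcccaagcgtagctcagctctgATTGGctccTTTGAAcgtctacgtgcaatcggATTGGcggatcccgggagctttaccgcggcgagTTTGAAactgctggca
Ccnb1 (chr13:100786513-100786595, minus strand), the cyclin B1 partner of Cdk1: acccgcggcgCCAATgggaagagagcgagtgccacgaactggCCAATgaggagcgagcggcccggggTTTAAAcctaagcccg
Cdc20 (chr4:118437337-118437406, minus strand), the activator of the anaphase-promoting complex: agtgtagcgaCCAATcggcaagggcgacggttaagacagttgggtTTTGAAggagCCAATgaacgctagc
Bub1 (chr2:127831887-127831937, minus strand), a spindle checkpoint kinase: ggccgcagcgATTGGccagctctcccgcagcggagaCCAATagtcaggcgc
Rrm2 (chr12:24708194-24708269, plus strand), the regulated subunit of ribonucleotide reductase: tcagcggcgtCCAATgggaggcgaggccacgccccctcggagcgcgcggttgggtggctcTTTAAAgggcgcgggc
Mcm3 (chr1:20820263-20820439, minus strand), a subunit of the MCM helicase: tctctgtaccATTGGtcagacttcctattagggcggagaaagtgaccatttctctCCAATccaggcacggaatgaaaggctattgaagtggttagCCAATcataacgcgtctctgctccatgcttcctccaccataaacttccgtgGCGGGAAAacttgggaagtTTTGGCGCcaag

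A CHR form was present in 18 of the 20 mitotic genes with a sequence (90.0%) and in 4 of the 12 replication genes (33.3%), beside 39.8% of all 27025 genes with a promoter in the table. The strict form TTTGAA was present in 15 of the 20 mitotic genes (75%) and 1 of the 12 replication genes (8.33%), beside 20.2% of all genes. The E2F forms ran the other way, with 1 of the 20 mitotic genes (5.00%, Cdk1) and 7 of the 12 replication genes (58.3%), beside 2.12% of all genes. CCAAT was found in 90.0% of the mitotic and 75% of the replication genes, beside 41.1% of all genes. TTTAAA reads the same on both strands, and a match is a description of these letters only.

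Most cells carried few of these transcripts, and a small number carried many. No member was detected in 32.3% of kept cells of the KO-labelled library and 42.4% of those of the WT library. 1 to 4 members were detected in most of the rest, and there the replication genes and Stmn1 made up most of what was seen. Cells with 10 or more members numbered 22 in the KO-labelled library and 58 in the WT library, and the richest cells carried 33 and 35 of the 38. Just below the threshold of 5 members, 133 cells of the KO-labelled library and 109 of the WT library had exactly 4, and just inside it 27 cells of each library had exactly 5. Those with 5 had a median of 1 mitotic gene in both libraries, so the threshold sits among cells seen mainly through replication genes.

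Cells with 5 or more members were 58 of 8934 (0.649%, interval 0.493 to 0.838) in the KO-labelled library and 110 of 10225 (1.08%, interval 0.885 to 1.30) in the WT library, a log2 ratio of -0.73 (interval -1.21 to -0.26). With 10 or more members the shares were 0.246% and 0.567%, a log2 ratio of -1.20 (interval -1.98 to -0.47). With 3 or more the order turned, at 8.43% in the KO-labelled library and 6.92% in the WT library. When each cell was thinned to 2000 UMIs, which left out 1380 shallower cells of the KO-labelled library and 2518 of the WT library, 19 of 7554 and 52 of 7707 cells still had 5 or more, a log2 ratio of -1.42 (interval -2.26 to -0.64). The order at 3 or more members did not turn in thinned cells, at 0.900% and 1.47%, a log2 ratio of -0.70 (interval -1.16 to -0.26). Cells rich in members were also deeper than their neighbours, with medians of 7488 UMIs in the KO-labelled library and 9093.5 UMIs in the WT library at 10 or more members.

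**Figure D1:**
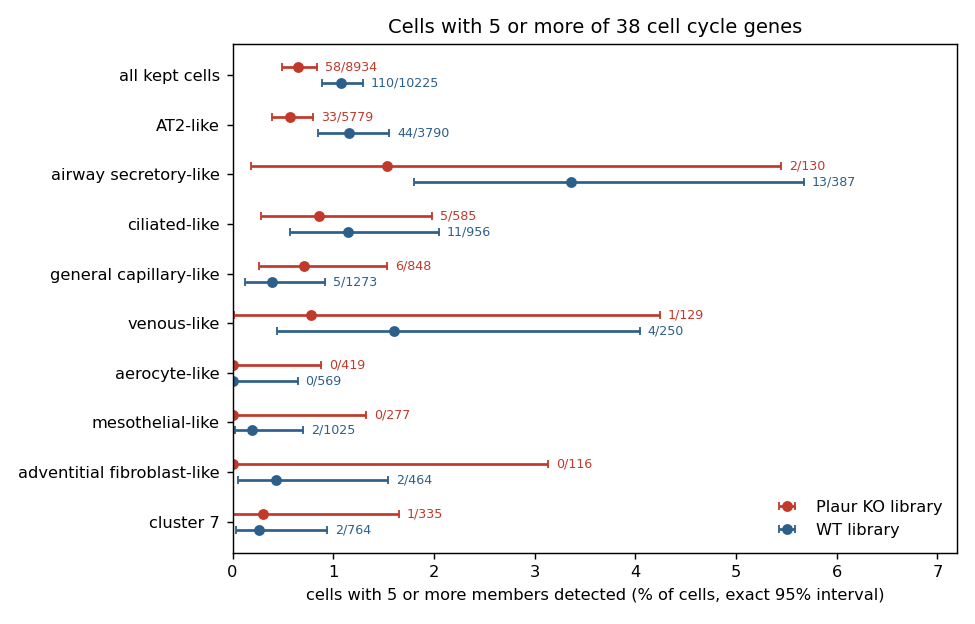
Share of cells with 5 or more of the 38 genes detected (percent of cells, horizontal axis) in all kept cells and in the 9 populations with at least 100 cells in each library. Points are the KO-labelled library (red, upper) and the WT library (blue, lower), bars are exact 95% intervals, and the fractions give cells with 5 or more over all cells of that population; aerocyte-like cells had 0 of 419 and 0 of 569.

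AT2-like cells, named from surfactant genes such as Sftpc, were the largest class and held 33 of the 58 such cells in the KO-labelled library and 44 of the 110 in the WT library. 33 of 5779 AT2-like cells (0.571%, interval 0.393 to 0.801) in the KO-labelled library and 44 of 3790 (1.16%, interval 0.845 to 1.56) in the WT library had 5 or more members, a log2 ratio of -1.02 (interval -1.72 to -0.34). With 10 or more, the counts were 8 and 19 cells (log2 ratio -1.86, interval -3.26 to -0.60), and in cells thinned to 2000 UMIs with 5 or more they were 6 of 5736 and 18 of 3760 (log2 ratio -2.19, interval -3.82 to -0.80). All 5 AT2-like clusters had the lower share in the KO-labelled library, but the interval of each log2 ratio included 0, with upper limits from 0.02 to 1.09. The clusters are parts of the same 2 libraries and are no repeats of each other. The cluster led by Cldn18, Ager and Aqp5, genes of the flat alveolar type 1 cell, had 9 of 911 cells (0.988%) in the KO-labelled library and 14 of 581 (2.41%) in the WT library. The cluster led by Ly6i, with Retnla, had 2 of 278 (0.719%) and 6 of 212 (2.83%) in the same order. At 3 or more members the AT2-like ratio was only -0.06 unthinned, and -0.91 (interval -1.56 to -0.27) in thinned cells.

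Ciliated cells no longer divide and were set as the class that should lack these genes. They were no clean floor: 5 of 585 (0.855%) in the KO-labelled library and 11 of 956 (1.15%) in the WT library had 5 or more members, at median depths of 5953 and 5958.5 UMIs, close to the 6176 and 6394.5 UMIs of AT2-like cells. The AT2-like share at 5 or more therefore did not exceed the ciliated-like share beyond counting error in either library. After thinning the shares were 0.105% in the KO-labelled library and 0.479% in the WT library in AT2-like cells, beside 0.174% and 0.325% in ciliated-like cells. Aerocyte-like cells, the gas-exchange capillary cells, had 0 of 419 and 0 of 569 cells, which allows shares of up to 0.716% in the KO-labelled library and 0.527% in the WT library, at lower depth (medians of 1578 and 1534 UMIs). What the ciliated-like cells carried is taken up after the AT2-like genes.

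In AT2-like cells all 38 genes reached 20 UMIs over both libraries. 20 of the 38 were at least 2-fold lower in the KO-labelled library and 0 were higher, where 4.28% of the 13863 genes past the same minimum were 2-fold apart in either direction. With a minimum of 100 UMIs, 8 of 23 were lower. The median log2 ratio of the 38 was -1.11, beside -0.11 over all these genes. 18 of the 23 mitotic genes (median -2.09) and 2 of the 14 replication genes (Uhrf1 and Rrm2, list median -0.39) made up the 20. The mitotic genes summed to 32.4 CPM (interval 30.6 to 34.3) in the KO-labelled library and 84.8 CPM (interval 81.3 to 88.5) in the WT library. The replication genes summed to 93.3 CPM (interval 90.3 to 96.5) and 110 CPM (interval 106 to 114), log2 ratios of -1.39 and -0.24 for mitotic and replication genes.

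Among the cyclins and their kinase in AT2-like cells, Ccna2, the cyclin of S and G2 phase, had 4 UMIs in 4 cells of the KO-labelled library and 33 UMIs in 14 cells of the WT library (0.107 and 1.31 CPM, log2 ratio -3.62, interval -5.58 to -2.13). Cdk1 had 31 UMIs in 9 cells against 86 UMIs in 16 cells (0.830 and 3.43 CPM, log2 ratio -2.04). Ccnb2 had 0.536 and 2.23 CPM in the KO-labelled and WT libraries (log2 ratio -2.06). Ccnb1 did not reach 2-fold, with 16 UMIs in the KO-labelled library, 9 of them in a single cell, and 15 UMIs in the WT library. The proliferation marker Mki67, which coats mitotic chromosomes, stood at 1.55 CPM in 42 cells of the KO-labelled library and 6.81 CPM in 40 cells of the WT library (log2 ratio -2.13, interval -2.59 to -1.70). Those were 58 and 171 UMIs, so the WT library had more Mki67 transcripts per cell that held any. Top2a, the topoisomerase that untangles sister chromosomes, was at 1.37 and 6.89 CPM in the KO-labelled and WT libraries (log2 ratio -2.34, interval -2.82 to -1.88).

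The centromere proteins were among the lowest ratios. Cenpf had 35 UMIs in 18 AT2-like cells of the KO-labelled library and 183 UMIs in 35 cells of the WT library, a log2 ratio of -2.96 (interval -3.52 to -2.43). Cenpe, the kinetochore motor, had 15 and 63 UMIs (log2 ratio -2.64, interval -3.56 to -1.81), and Birc5, the survivin subunit of the chromosomal passenger complex, 32 and 104 UMIs (log2 ratio -2.27). Of the spindle genes Tpx2, Hmmr, Kif11, Nusap1 and Kif23 had log2 ratios from -1.15 for Kif23 to -2.43 for Tpx2, while Prc1, which bundles midzone microtubules, was at -0.90. Cenpa, the centromeric histone, was at -1.25 and the kinase Plk1 at -1.07. The mitotic kinases Aurka and Aurkb had 7 UMIs each in the KO-labelled library, against 20 and 21 UMIs in the WT library. Ube2c had 75 UMIs against 119, but 44 of the 75 came from a single cell of the KO-labelled library. The checkpoint kinases Bub1 and Bub1b stood apart from the other mitotic genes, at log2 ratios of -0.29 (interval -0.60 to 0.03) and -0.23 (interval -0.59 to 0.14), and were found in 172 and 141 AT2-like cells of the KO-labelled library, against 127 and 99 cells of the WT library.

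**Figure D2:**
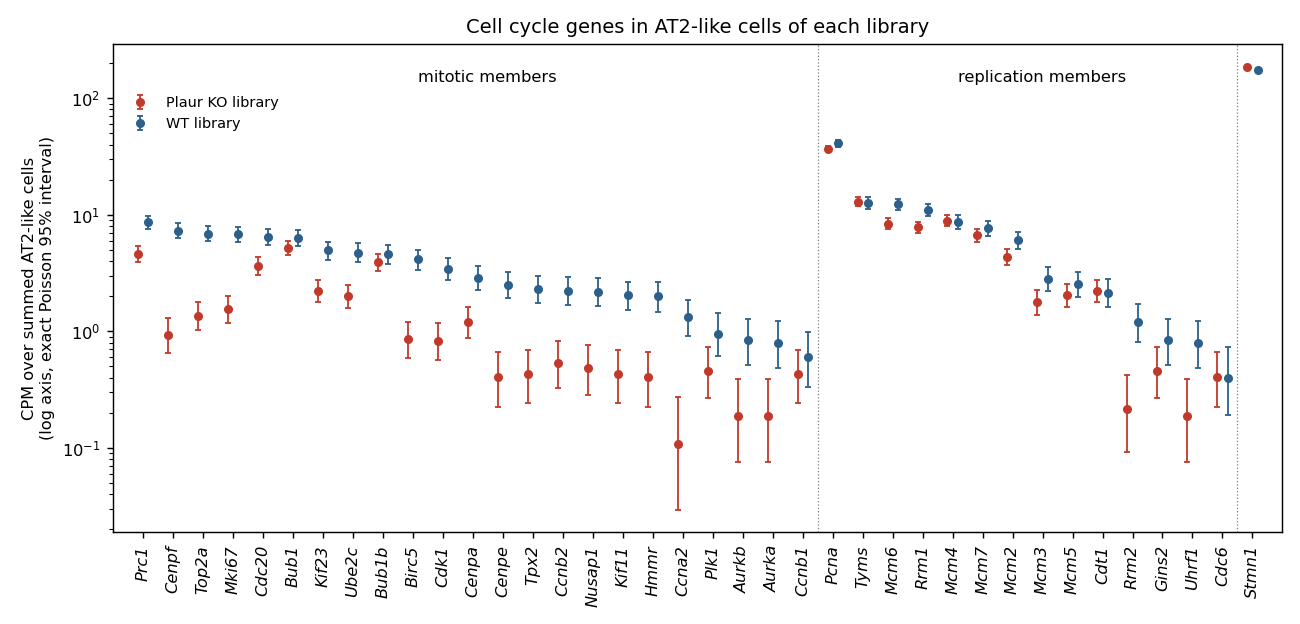
Level of each gene over the summed AT2-like cells (CPM, log axis), for the KO-labelled library (red, left of each pair) and the WT library (blue, right), with exact Poisson 95% intervals. Genes are ordered within mitotic genes, replication genes and Stmn1 by their WT level. The pairs separate over most mitotic genes and lie close for most replication genes, such as Pcna at 37.0 and 41.0 CPM.

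The replication genes were spread over many more AT2-like cells and differed less. Pcna had 1381 UMIs in 1179 cells of the KO-labelled library and 1028 UMIs in 832 cells of the WT library (37.0 and 41.0 CPM, log2 ratio -0.15, interval -0.26 to -0.03). The MCM helicase subunits ran from a log2 ratio of 0.03 for Mcm4 to -0.68 for Mcm3. The highest ratios of all 38 were 0.06 for Stmn1 (184 CPM in the KO-labelled library and 176 CPM in the WT library), 0.05 for Cdt1 and 0.04 for Tyms, the thymidylate synthase. Cdc6 was at 0.01, Mcm2 at -0.46 and Gins2 at -0.88. Among the nucleotide enzymes Rrm2 stood apart, with 8 UMIs in 3 cells against 30 UMIs in 9 cells (log2 ratio -2.48, interval -3.82 to -1.32), while its partner Rrm1 was at -0.49. Uhrf1, which carries DNA methylation through replication, had 7 UMIs against 20.

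Genes of the cycle outside the 38 were read in AT2-like cells in the same way, where 4.28% of all genes past the minimum were 2-fold apart. Of 61 other mitotic genes with at least 20 UMIs, 37 were 2-fold lower in the KO-labelled library and 0 higher (median log2 ratio -1.28). Pclaf had 8 UMIs in the KO-labelled library and 45 UMIs in the WT library (log2 ratio -3.06), the spindle protein Ckap2 10 and 50 UMIs (-2.89), and the kinetochore subunit Spc25 17 and 54 UMIs (-2.24). Pclaf was listed with the mitotic genes, but it is a partner of the replication clamp Pcna. Each of these 3 genes passed the minimum only through its UMIs in the WT library. The list held 77 genes in the files, so the minimum in part sets the direction of this count. Of all genes past the minimum, 503 were 2-fold lower and 90 higher. Of 38 other replication genes, 4 were 2-fold lower and 0 higher (median -0.33). None of the 8 cyclins and kinases of G1 phase, the 6 CDK inhibitors or the 18 E2F, RB and DREAM factors that passed the minimum reached 2-fold, with medians of -0.08, -0.04 and -0.12; counts of 0 in lists this short lie near the share of all genes and say nothing of these lists. The lists come from the same 2 libraries and are not independent of each other.

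A few cells carried much of the mitotic signal. Cells with 10 or more members held 41.6% of all mitotic UMIs in the KO-labelled library (22 cells) and 70.3% in the WT library (58 cells). With these cells left out, the mitotic genes summed to 22.7 CPM in the KO-labelled library and 24.2 CPM in the WT library over all kept cells, a log2 ratio of -0.09, where it was -1.06 with them (38.7 and 80.5 CPM). In AT2-like cells the ratio without them was -0.17. The cells left out were chosen by the genes that are summed, so a ratio nearer 0 without them is in part set by that choice, here and in each class below. The AT2-like ratio of -1.39 was also sensitive to which cells were kept: it was -0.54 under a stricter cell filter (1000 genes, 10% mitochondrial UMIs), -0.84 under a looser one (200 genes, 25%), -0.82 with doublets kept and -1.83 with the libraries clustered apart. Because UMIs of the same cell are not independent draws, the intervals of summed CPM are narrower than the cell-to-cell spread, and the intervals of the cell shares are the wider guide.

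Within the rich AT2-like cells the levels overlapped between the libraries. Mitotic CPM per cell had a median of 3879 (lowest 118, highest 16459) in the 8 cells of the KO-labelled library and 5824 (lowest 174, highest 14038) in the 19 cells of the WT library. More mitotic than replication genes were detected in 5 of the 8 and 16 of the 19 cells, and more replication than mitotic genes in 3 cells of each library. Their clusters were named from surfactant genes, so such genes are no separate check of them, and these genes did not all stand alike in them. Sftpc stood at 151205 CPM in the KO-labelled library and 95310 CPM in the WT library, beside 166821 and 155326 CPM in AT2-like cells with under 3 members. Sftpb, another surfactant protein, stood at 2871 and 2957 CPM in the rich cells, beside 5829 and 5848 CPM in those with under 3 members. Etv5, a transcription factor of AT2 cells, was at 132 CPM beside 379 CPM in the KO-labelled library and 386 CPM beside 407 CPM in the WT library. Ptprc had 0 UMIs in them in both libraries. The median doublet score of the rich cells was 0.060 in the KO-labelled library and 0.133 in the WT library. In AT2-like cells with under 3 members it was 0.097 and 0.062. Whether some rich cells were doublets was not tested. Other genes, chosen after their values were seen, were higher than in cells with under 3 members in both libraries. The histone variant H2afz was at 3189 against 602 CPM in the KO-labelled library and 3587 against 580 CPM in the WT library, and the cyclin Ccnd1 at 635 against 147 CPM and 356 against 145 CPM. Krt8, a keratin that rises when AT2 cells change state, was at 662 against 230 CPM in the KO-labelled library and 528 against 251 CPM in the WT library. Areg, another gene of that change, stood at 132 against 101 CPM in the KO-labelled library. In the WT library Areg was lower in the rich cells, at 76.2 against 127 CPM, so no change of state is read from Krt8.

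Each gene was then placed by the share of its UMIs found in cells with 10 or more of the other members, a measure over all kept cells that leaves the gene itself out. Ube2c (82.4% in the KO-labelled library and 96.5% in the WT library), Hmmr (87.9% and 93.7%) and Cdk1 (73.4% and 84.3%) had most of their UMIs in such cells. Mki67 reached 52.4% and 82.5% and Top2a 62.7% and 84.2%. In cells with under 3 other members Hmmr stood at only 0.0687 CPM in the KO-labelled library and 0.112 CPM in the WT library. At the other end were Pcna (2.13% and 7.40%), Mcm4 (2.73% and 6.48%), Tyms (3.67% and 11.7%) and Stmn1 (2.73% and 14.4%). The 2 groups did not follow the roles throughout. Rrm2 lay among the mitotic genes at 59.4% and 74.8%, whereas Bub1 (3.43% and 25.5%) and Bub1b (6.47% and 22.2%) were spread like the replication genes. All 38 shares were lower in the KO-labelled library, which held fewer cells with 10 or more members (22 against 58). Genes outside the 38 showed the same order, such as CDK inhibitors at medians of 0.153% and 2.63% and G1 cyclins and kinases at 0.684% and 2.68%. The count of 38 is therefore no result about these genes.

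**Figure D3:**
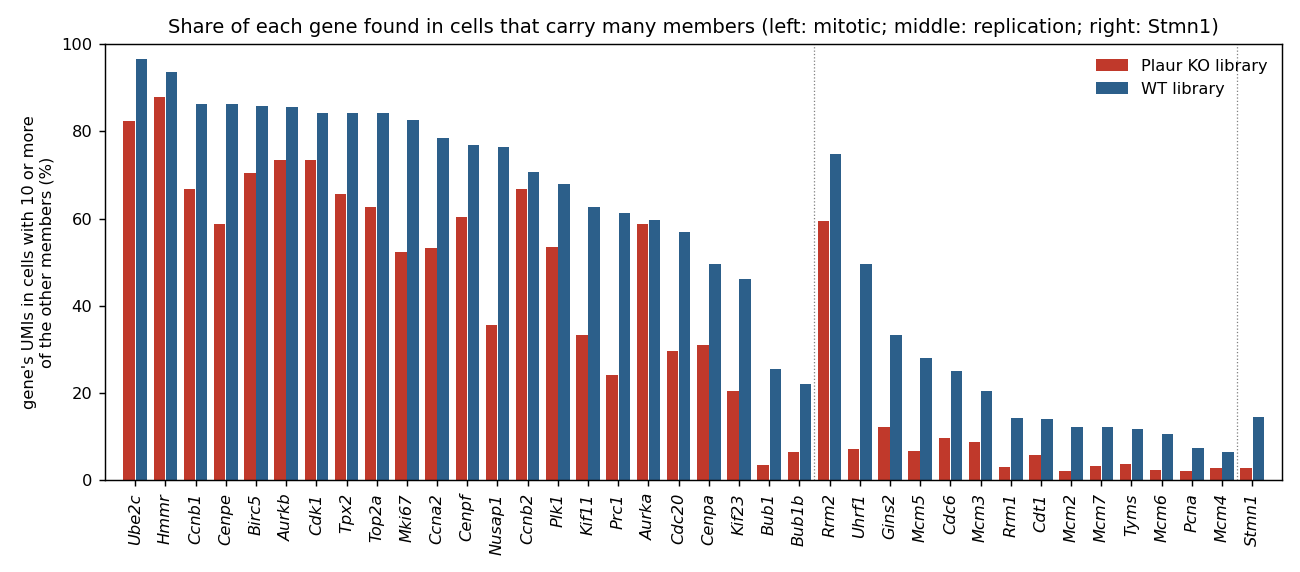
Share of each gene's UMIs (percent, vertical axis) that lay in cells with 10 or more of the other members, over all kept cells of the KO-labelled library (red, left bar) and the WT library (blue, right bar). Mitotic genes stand left, replication genes in the middle and Stmn1 at the right, each ordered by the WT share; Ube2c reached 82.4% and 96.5%, Pcna 2.13% and 7.40%.

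Ciliated-like cells held a separate kind of rich cell. In the WT library 7 of 956 (0.732%, interval 0.295 to 1.503) had 10 or more members, and in the KO-labelled library 0 of 585, which allows a share of up to 0.513%; the interval of the log2 ratio reached 0.18, so a difference was not detectable at this number of cells. All 7 carried Cdk1, Top2a and the ciliated cell factor Foxj1, and 6 of 7 carried Cdc20, Cenpe, Aurka and Rrm1. None of the 7 carried Birc5, Hmmr, Kif23 or Bub1b, which were found in 15, 15, 14 and 11 of the 19 rich AT2-like cells of the WT library. Mki67 was found in 3 of the 7 and in 18 of those 19. Mcm2, Mcm5, Cdc6, Cdt1 and Uhrf1 were found in none of the 7. Mitotic CPM per cell had a median of 1782 (lowest 1082, highest 2724), below the WT AT2-like median of 5824.

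Mouse cells that are turning into multiciliated cells are known to use Cdk1 and other mitotic regulators to make many centrioles without dividing. A set of genes of that step was therefore read in these cells, chosen after their members had been seen. Ccno, Mcidas (a switch of the multiciliated fate), Deup1 (the scaffold of the deuterosome, on which the centrioles form), Cdc20b and Foxn4 were detected in 6, 5, 6, 5 and 5 of the 7 cells. Cdc20b stood at 2047 CPM in them, beside 0.764 CPM in WT ciliated-like cells with under 3 members, and Mcidas at 484 CPM beside 0.573 CPM. In the rich AT2-like, endothelial and B or plasma-like cells of both libraries all 5 genes were at 0. They are part of a longer list read in the same cells, and the rest of it was not absent throughout. In the 8 rich AT2-like cells of the KO-labelled library Plk4 and Stil were each found in 2, Cep152 in 1, and Gmnc, Myb and Cep78 in 0. Deup1 was also found in 95 of 540 ciliated-like cells with under 3 members in the KO-labelled library. Plk4, the kinase that starts a centriole, was the only other mitotic gene named by the 2-fold rule in ciliated-like cells. It had 7 UMIs in the KO-labelled library and 43 UMIs in the WT library over the class (log2 ratio -1.94, interval -3.33 to -0.77). Plk4 met the UMI minimum for naming mostly through the WT library, so the minimum in part sets this direction. Of 23 other mitotic genes with at least 20 UMIs in the class, 7 were 2-fold lower and 0 higher, beside 3.77% of all genes.

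Read the other way, 1 kept cell of the KO-labelled library and 10 of the WT library had 3 or more of these 5 genes, whatever their members, in ciliated-like (1 and 6 cells) and airway secretory-like (0 and 4 cells) clusters. Each of these cells also had 5 or more of the 38 cell cycle genes, with a median of 13 in the WT library. Of the 13 airway secretory-like WT cells with 5 or more members, 4 were of this kind. The share of all kept cells was 0.0112% (interval 0.000283 to 0.0623) in the KO-labelled library and 0.0978% (interval 0.0469 to 0.180) in the WT library.

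**Figure D4:**
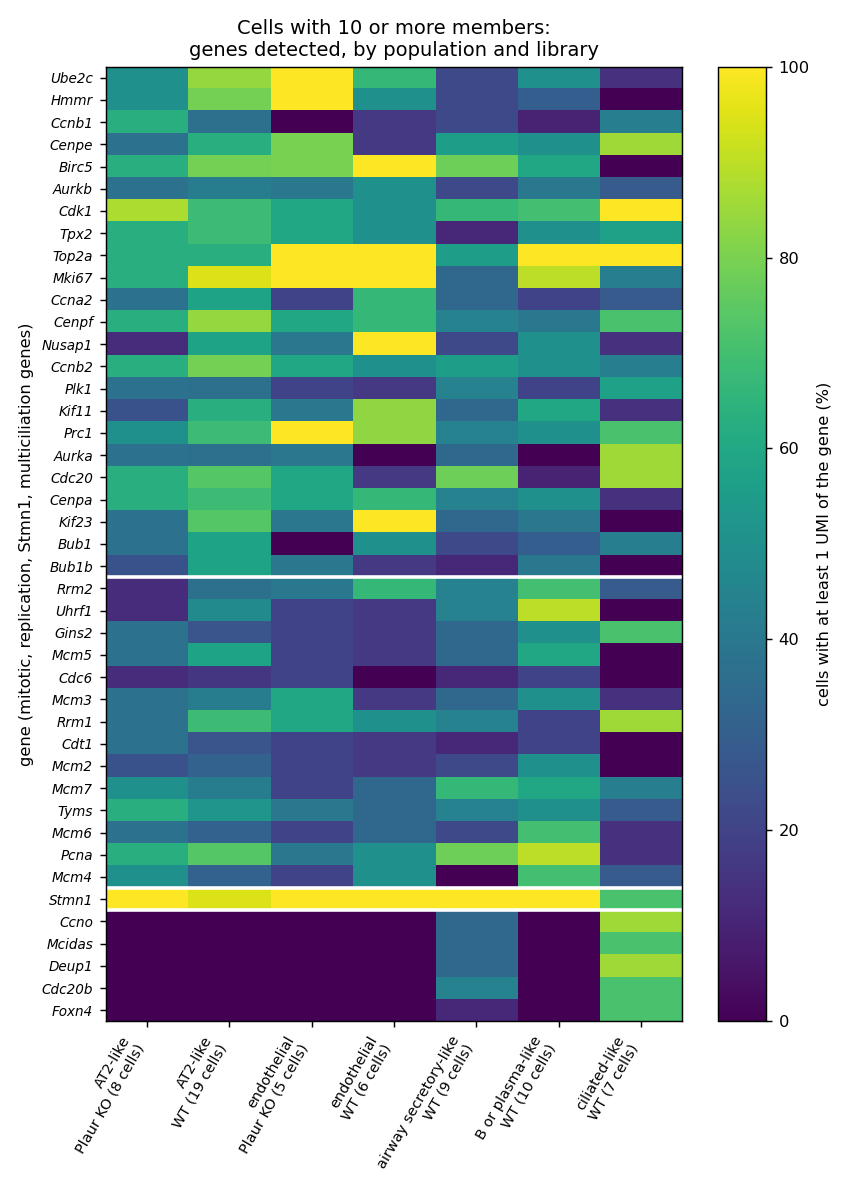
Percent of cells with at least 1 UMI of each gene (colour scale) among cells with 10 or more members, by population and library, with the number of cells in each column; endothelial joins general capillary-like and venous-like cells, and the 2 airway secretory-like and 1 B or plasma-like cells of the KO-labelled library are not drawn. The cells were chosen by the 38 genes, so those rows only describe them; the lowest 5 rows are multiciliation genes outside the choice, at 0 in all but the airway secretory-like and ciliated-like columns.

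In ciliated-like cells as a class, 16 members passed 20 UMIs, and 3 of these, Cdk1, Prc1 and Cdc20, were 2-fold lower in the KO-labelled library with none higher, beside 3.77% of all genes past the minimum. The count of 3 rests on genes seen mostly in the WT library, and with a minimum of 100 UMIs it was 0 of 4. Cdk1 had 3 UMIs against 41 (log2 ratio -3.09, interval -5.43 to -1.44). The summed mitotic level was 33.0 CPM in the KO-labelled library and 58.4 CPM in the WT library (log2 ratio -0.82). Without cells of 10 or more members the log2 ratio was 0.27 (interval -0.08 to 0.62), but that step took out 7 WT cells and 0 cells of the KO-labelled library, for carrying the genes summed, so the move is set by the choice and is no result. The largest ratios were 0.72 for Stmn1 (60.7 and 36.8 CPM), 0.50 for Kif23, a midbody motor, and 0.46 for Tyms. Mki67 had 5 and 12 UMIs, Top2a 16 and 51 UMIs (log2 ratio -0.99), and Pcna stood at 42.9 and 45.2 CPM.

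General capillary-like cells, the endothelial cells that line most of the alveolar bed, had more mitotic transcripts in the KO-labelled library. The summed mitotic level was 145 CPM (interval 125 to 167) in the KO-labelled library and 39.1 CPM (interval 30.7 to 49.1) in the WT library, a log2 ratio of 1.89. 80.5% of the mitotic UMIs of the KO-labelled library came from 4 cells, and the ratio without the rich cells of both libraries was 0.25 (interval -0.42 to 0.92). Those 4 cells had a median doublet score of 0.153, beside 0.016 in cells of the class with under 3 members. In the WT library the rich cells stood at 0.022 beside 0.017. The cell counts did not separate the libraries beyond counting error, with 6 of 848 (0.708%) and 5 of 1273 (0.393%) at 5 or more members (log2 ratio 0.85, interval -1.13 to 2.90). 12 members passed 20 UMIs, and 3 were 2-fold higher and 0 lower, beside 3.97% of all genes. These 3 passed through their UMIs in the KO-labelled library. Cenpf had 23 UMIs against 2, Prc1 22 against 4 and Top2a 26 UMIs in 9 cells against 7 UMIs in 5 cells. Mki67 had 15 UMIs in 5 cells against 3 UMIs in 3 cells. The lowest ratios were those of Mcm4 (-0.89), Pcna (-0.47, 36.7 and 50.7 CPM) and Mcm7 (-0.28). Stmn1 was at 325 CPM in the KO-labelled library and 242 CPM in the WT library. When cell cycle genes were left in the clustering, the summed mitotic ratio of the class was 0.27. Outside the 38 genes, the histone chaperone Nasp had 51 and 35 UMIs (log2 ratio 1.11) in the KO-labelled and WT libraries. The DREAM subunit Lin52 had 15 and 57 UMIs (-1.36) in the same order. Each met the UMI minimum for naming in the library where it was higher.

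Venous-like cells, marked by Vwf and Selp, went the other way, at 109 mitotic CPM in the KO-labelled library and 385 CPM in the WT library (log2 ratio -1.82, interval -2.35 to -1.31). These sums rested on 1 rich cell of 129 and 4 of 250, which held 78.9% and 91.4% of the mitotic UMIs, and without them the ratio was -0.56 (interval -1.97 to 0.72). 8 members passed 20 UMIs, and 3 were 2-fold lower, beside 8.64% of all genes. These 3 passed through their UMIs in the WT library. Top2a had 4 UMIs in 2 cells against 45 UMIs in 6 cells (log2 ratio -2.85), Mki67 7 UMIs in 1 cell against 29 UMIs in 4 cells (-1.41) and Tyms 6 against 20 UMIs (-1.09, interval -2.70 to 0.27). Mcm6 and Rrm1 were at 0.64 and 0.42, Pcna at 43.1 and 51.5 CPM, and Stmn1 at 115 and 92.0 CPM in the KO-labelled and WT libraries. With general capillary-like cells, 5 rich endothelial cells of the KO-labelled library and 6 of the WT library were found, all with more mitotic than replication genes and all with Mki67 and Top2a. Aerocyte-like cells had 0 Mki67 UMIs in both libraries and 0 and 1 Top2a UMIs. 4 of their members passed the minimum and 0 were 2-fold apart, beside 5.06% of all genes, with Rrm1 at 0.50, Stmn1 at 0.21 (107 and 92.5 CPM), Pcna at 0.06 (59.7 and 57.3 CPM) and Mcm3 at -0.11.

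Airway secretory-like cells, named from Scgb1a1 and its relatives, were sequenced more deeply than AT2-like cells. 2 of 130 (1.54%, interval 0.187 to 5.45) in the KO-labelled library and 13 of 387 (3.36%, interval 1.80 to 5.68) in the WT library had 5 or more members, at median depths of 11879 and 9145 UMIs, and the log2 ratio of -1.13 had an interval of -4.32 to 1.02. Thinned to 2000 UMIs, 0 of 130 and 5 of 381 (1.31%) had 5 or more, beside 6 of 137 (4.38%) and 4 of 191 (2.09%) general capillary-like cells and 1 of 74 (1.35%) and 4 of 114 (3.51%) venous-like cells in the KO-labelled and WT libraries. Thinning left out 711 and 1082 general capillary-like and 55 and 136 venous-like cells, but only 0 and 6 airway secretory-like cells. The thinned endothelial shares thus cover only the deeper cells, and the classes are not ranked by them. Unthinned, the shares were 0.708% and 0.393% in general capillary-like and 0.775% and 1.6% in venous-like cells. In the WT library 5 of the 13 lay in a cluster of 45 cells led by Scgb3a1 and Reg3g, a secretory state of the upper airway. The KO-labelled library had 0 of 13 cells there, which allows up to 23.1%. This cluster was also deeper, with a WT median of 17110 UMIs against 8639.5 UMIs in the other airway secretory-like cluster. The mitotic genes summed to 21.6 CPM and 61.2 CPM (log2 ratio -1.50, interval -2.04 to -1.004), and to a ratio of -0.75 (interval -1.71 to 0.11) without the rich cells. 12 members passed 20 UMIs, with 7 lower and 0 higher by 2-fold, beside 8.59% of all genes. All 7 passed through their UMIs in the WT library, which held more cells, and with a minimum of 100 UMIs 0 of 2 were lower, so nothing is read from this count. Cdc20 had 1 UMI against 26, Rrm1 and Prc1 2 UMIs each against 25 each. Top2a had 0 UMIs in the KO-labelled library and 28 UMIs in 12 cells of the WT library, and Mki67 2 and 14 UMIs. Stmn1, at 57.7 and 64.2 CPM, Mcm4 and Mcm6 had the highest ratios, from -0.15 to -0.25, and Pcna was at -0.28. Outside the 38 genes, Cks2, a Cdk1 subunit, had 16 UMIs against 92 (log2 ratio -1.19). Tfdp2, an E2F partner, had 9 against 56 (-1.30). Both genes met the UMI minimum for naming mostly through the WT library, so no direction is read from them. The 2 rich cells of the KO-labelled library held no Mki67 or Top2a UMI.

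**Figure D5:**
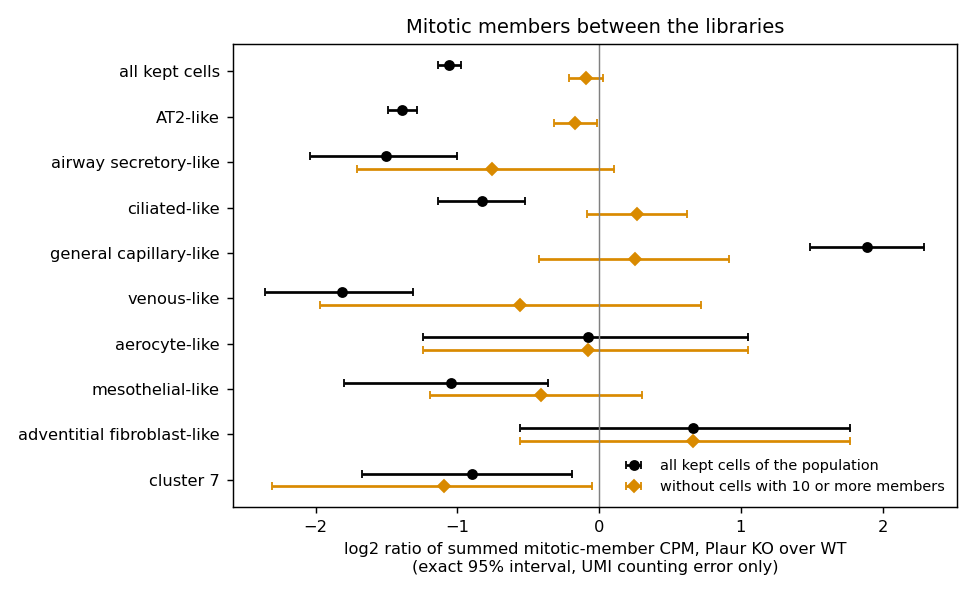
Log2 ratio of the summed CPM of the 23 mitotic genes, KO-labelled over WT library (horizontal axis), with all kept cells of a population (black circles) and without cells that had 10 or more members (orange diamonds), with exact 95% intervals that cover UMI counting only. Over all kept cells the ratio is -1.06 with these cells and -0.09 without them, and in general capillary-like cells 1.89 and 0.25. The cells left out were chosen by the same genes, so part of each shift follows from the choice.

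The mesenchymal and mesothelial populations held few rich cells. Mesothelial-like cells, the lining of the pleura, had 0 of 277 cells with 5 or more members in the KO-labelled library, which allows up to 1.08%, and 2 of 1025 (0.195%) in the WT library. 9 members passed 20 UMIs and 0 were 2-fold apart, beside 9.16% of all genes, and the ratios ran from 0.89 for Mcm6 to -0.92 for Rrm1, with Pcna at -0.19 and Stmn1 at -0.60. Adventitial fibroblast-like cells, around vessels and airways, had 0 of 116 and 2 of 464. 7 members passed, and 1, Mcm3 (2 against 24 UMIs, log2 ratio -1.60, interval -4.73 to 0.41), was 2-fold lower, beside 7.75% of all genes; it passed through its UMIs in the WT library. Cluster 7, a fibroblast cluster led by Mgp, Mfap4 and Inmt that no single class name fitted, had 1 of 335 (0.299%) and 2 of 764 (0.262%), with 0 of the 7 members that passed 2-fold apart, beside 4.23% of all genes. Its ratios ran from 0.61 for Mcm6 to -0.34 for Tyms, with Pcna at 0.51 and Stmn1 at 0.05. The 2 WT mesothelial-like cells with 5 or more members lay in a cluster of 112 cells led by Dcn and Lgals1, and 0 of the 913 WT cells of the other mesothelial-like cluster had 5. The summed mitotic level was 13.3 CPM in the KO-labelled library and 27.5 CPM in the WT library in mesothelial-like cells (log2 ratio -1.04), 18.6 and 34.7 CPM in cluster 7 (-0.90), 19.4 and 12.3 CPM in adventitial fibroblast-like cells (0.66, interval -0.56 to 1.77) and 16.2 and 17.1 CPM in aerocyte-like cells (-0.08, interval -1.24 to 1.05). In mesothelial-like cells Mki67 had 1 and 8 UMIs and Top2a 0 and 4, in cluster 7 Mki67 had 0 and 5 and Top2a 4 and 9, and in adventitial fibroblast-like cells Mki67 had 0 and 3 and Top2a 0 and 2, in the KO-labelled and WT libraries. Adventitial Pcna was at -0.43 and Rrm1 at -0.42, and Mcm4, Tyms and Mcm6 were at 0.76, 0.74 and 0.70. Outside the 38 genes, mesothelial-like cells had Diaph3 at 1.11 (39 and 59 UMIs in the KO-labelled and WT libraries). In the same order, Ezh2 was at -1.24 (11 and 85), Anln at -1.07 (9 and 62) and Rfc4 at -1.52 (5 and 47). Cluster 7 had Ezh2 at -1.05 (13 and 67), E2f5 at -1.13 (9 and 49) and Smc4 at -1.36 (10 and 64). The genes with negative ratios met the UMI minimum for naming mostly through the WT library, so no direction is read from them. The intervals of Anln and E2f5 reached -0.06 and -0.09.

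Populations below 100 cells in a library are given as values only. B or plasma-like cells, blood cells that the sort should have removed, had 1 of 46 cells (2.17%) in the KO-labelled library and 10 of 192 (5.21%, interval 2.53 to 9.37) in the WT library with 5 or more members, and the same counts with 10 or more. The KO-labelled cell had Sftpc at 101530 CPM, Sftpb at 5306 CPM and Lamp3 at 1327 CPM, which mark AT2 cells, and 11307 UMIs, against a class median of 1376.5 in that library, at a doublet score of 0.327. Its AT2 markers summed to 143893 CPM and its B or plasma markers to 3538 CPM. Mki67 was found in 9 and Uhrf1 in 9 of the 10 WT cells, and 4 of the 10 had more replication than mitotic genes. Summed over the whole class, the mitotic level was 101 CPM in the KO-labelled library and 895 CPM in the WT library. Cluster 20, led by Ccl4, Ccl3 and Gzmb, had 4 of 25 cells (16%) and 6 of 67 (8.96%), and macrophage or monocyte-like cells 1 of 9 and 4 of 21. Single cells set several sums. The neutrophil-like WT sum rested to 78.9% on 1 cell with 33 members, and this cell also had AT2 markers at 175100 CPM beside neutrophil markers at 14781 CPM. The smooth muscle-like WT sum rested to 96.3% on 1 cell, and that of cluster 19 in the KO-labelled library (2060 CPM) to 94.04% on 1 cell.

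7 of the 38 genes overlap a gene on the opposite strand in the GENCODE M21 annotation of GRCm38 (Ccna2, Cdc20, Gins2, Mcm7, Nusap1, Prc1 and Ube2c) and none overlaps a gene on its own strand. Whether the counting used strand is not given in the sources used here, so reads of these 7 and their partners may not be told apart.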

How the data were processed

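Single-cell RNA counts of 2 lung libraries, labelled Plaur KO and WT, were read as deposited: whole-number UMI counts per gene and cell barcode made by the authors. The submitters' processing notes name Cell Ranger in versions 7.0.0 and 7.1.0. Which version made which step, and the use of introns and strand, are not given in the sources used here. Barcodes under 500 detected genes or above 15% mitochondrial UMIs were dropped. Scrublet marked 175 barcodes of the KO-labelled library (1.92%) and 617 of the WT library (5.69%) as doublets, which were removed. Cells were clustered together with scanpy 1.11.5 (2000 variable genes, 30 principal components, 15 neighbours, Leiden resolution 1) after all cell cycle genes were taken out, and 22 of 27 clusters were named from marker genes. Total UMIs of the deposited barcodes were 51529241 in the KO-labelled library and 57028943 in the WT library.

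A gene was detected in a cell at 1 UMI or more. UMIs were summed per population and library and divided by the population's total (CPM). Populations with at least 100 cells per library were compared, and a 2-fold difference was counted for genes with at least 20 UMIs over both libraries. Intervals are exact (Clopper-Pearson for shares, Poisson for CPM, conditional binomial for ratios), and limits for a count of 0 stand for 3 counts. Named genes are Mki67, Top2a, Pcna and Stmn1, the 3 highest and 3 lowest ratios of each compared population, and companion genes with at least 50 UMIs and a 2-fold difference. The members and lists were chosen with earlier results of these data known. TMM factors came from edgeR 4.0.16 and served as an alternative only. Interval code was tested on simulated data.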

Additional observations from a re-analysis of the deposited data

Results flagged for a closer look

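The summed mitotic genes ran in opposite directions in different populations. Their log2 ratio, KO-labelled over WT library, was 1.89 in general capillary-like cells and was -1.39 in AT2-like, -0.82 in ciliated-like, -1.04 in mesothelial-like, -0.90 in cluster 7, -1.50 in airway secretory-like and -1.82 in venous-like cells. The difference between populations was not tested.

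Barcodes marked as doublets, which no comparison used, carried 5 or more of the 38 genes more often than kept cells. The share was 4.57% (8 of 175, interval 1.99 to 8.81) in the KO-labelled library and 3.08% (19 of 617, interval 1.86 to 4.77) in the WT library, beside 0.649% and 1.08% of kept cells. Marked doublets were also deeper, with medians of 8036 and 8478 UMIs. Whether dividing cells were marked as doublets was not tested.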

How the results depend on the processing

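Values are log2 ratios, KO-labelled over WT library, unless counts are named. The share of cells with 5 or more members turned to 0.28 over all kept cells at 3 members and was -1.42 when thinned. In AT2-like cells it was -0.062 at 3 members, -1.86 at 10 and -2.19 thinned. Both thinned and at 3 members, it was -0.70 over all kept cells and -0.91 in AT2-like cells. The mitotic sum in AT2-like cells was -0.84 under the looser and -0.54 under the stricter cell filter, -0.82 with doublets kept, -0.66 with the highest 8% of doublet scores removed, -1.65 with cell cycle genes in the clustering, -1.83 with libraries clustered apart, -1.27 with TMM and -1.05 as a mean over cells. In venous-like cells it was -0.97, -1.31, -0.84, -1.12, -0.56 and -1.17 under the first 6 of these settings in the same order, and -1.25 at resolutions 0.5 and 2. In airway secretory-like cells it was -3.31 under the stricter filter, -0.66 with cell cycle genes in the clustering and -0.71 as a mean over cells. In general capillary-like cells it was 1.38 with doublets kept, 1.41 with the highest scores removed, 0.27 with cell cycle genes in the clustering and 0.86 at resolution 0.5. In ciliated-like cells it was -0.30 as a mean over cells. Over all kept cells it was -0.90 with the highest scores removed and also without the 50 most abundant genes in the totals, -0.81 with TMM and -0.60 as a mean over cells.

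The replication sum in AT2-like cells was -0.057 under the stricter filter, -0.12 with doublets kept and -0.11 with TMM; in airway secretory-like cells -0.96 under the stricter filter and -0.94 at resolution 2; over all kept cells -0.034 with TMM, -0.13 without the 50 most abundant genes and -0.22 as a mean over cells. TMM moved all genes by 0.25 over all kept cells, 0.12 in AT2-like and 0.16 in airway secretory-like cells.

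Leaving out cells with 10 or more members, an alternative chosen after seeing the data, gave mitotic sums of -0.093 over all kept cells, -0.17 in AT2-like, 0.25 in general capillary-like, -0.75 in airway secretory-like and -0.56 in venous-like cells, and turned ciliated-like cells, where only WT cells were left out, to 0.27. These cells were chosen by the genes summed, so part of each move is set by the choice. Replication sums were -0.16 over all kept cells and -0.12 in AT2-like cells. Leaving out the richest cell of each library, also added later, gave mitotic sums of -3.50 in venous-like and -2.57 in airway secretory-like cells and a replication sum of -0.77 in venous-like cells.

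With no minimum of UMIs, where a gene at 0 in a library counts as 2-fold, members higher and lower were 15 and 3 in general capillary-like, 3 and 13 in ciliated-like, 2 and 15 in mesothelial-like, 9 and 16 in cluster 7, 5 and 8 in aerocyte-like, 7 and 11 in adventitial fibroblast-like, 1 and 21 in airway secretory-like and 3 and 22 in venous-like cells. With a 0 set to the floor of 3 UMIs instead, they were 14 and 3, 4 and 8, 11 and 1, 12 and 7, 7 and 2, 15 and 1, 3 and 13 and 7 and 14 in the same order. The larger count thus turned from lower to higher in mesothelial-like cells, cluster 7, aerocyte-like and adventitial fibroblast-like cells, because a gene at 0 with few UMIs in the other library can lie on opposite sides under the 2 rules, and no direction is read there. With the floor, all genes higher and lower were 2407 and 1605, 2511 and 916, 3717 and 1317, 3461 and 796, 1939 and 1635, 4001 and 856, 3282 and 1357, and 2490 and 1034 in the same order of populations. With a minimum of 100 UMIs, 8 were lower in AT2-like cells, 0 higher in general capillary-like cells and 0 lower in ciliated-like, adventitial fibroblast-like and airway secretory-like cells. Without the cells with 10 or more members, 5 were lower over all kept cells, 2 in AT2-like, 0 in ciliated-like, 1 in cluster 7, 1 in airway secretory-like and 1 in venous-like cells, and 0 were higher in general capillary-like and 1 in venous-like cells. Where the sums moved, the cause was not tested. No paired analysis was possible because each genotype is 1 library.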
